A study of Mus musculus with 12 samples.

Results

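The interferon response genes followed here are 32 genes, out of 24964 genes in the count table, that cells are known to switch on when they meet interferon. They were taken by symbol from a fixed list of such genes and not by a cut on their measured values. The list itself was chosen with earlier results of these data known, so counts over it are not blind to the data. All 32 were in the table, and all 32 passed the filter on low counts that left 15561 genes tested. RNA had been sequenced from uterine tissue of pregnant mice at 13.5 dpc (days post coitum), with 4 libraries in each of 3 groups. The control mice had the genotype Myh11Cre. The PGR-A OE mice had the genotype Myh11Cre; LSLPGRA/+ and overexpressed isoform A of the progesterone receptor, and the PGR-B OE mice had the genotype Myh11Cre; LSLPGRB/+ and overexpressed isoform B. Every group, the controls included, thus carried the Cre driver. Myh11 encodes a smooth muscle myosin heavy chain, so the driver acts in smooth muscle, that of blood vessels included, whereas the RNA came from whole uterine tissue with its other cell types. Whether each of the 4 libraries of a group is from its own animal is not stated in the labels. The p-values therefore describe the spread among these libraries, and some of it may be technical.

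Interferons are secreted proteins best known for the defence against viruses. Type I interferons bind a receptor whose kinases activate transcription factors, and a complex that holds STAT2 and IRF9 then binds the interferon-stimulated response element (ISRE) in the promoters of its target genes. Many of the products sense viral RNA, degrade or block it, modify proteins with the ubiquitin-like ISG15, or feed back on the pathway, and genes of this set are known to be active in the uterine lining during pregnancy in several species.

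The ISRE is a known target sequence of this pathway, so it was searched in the promoters of these genes. The core GAAANNGAAA was searched on both strands, overlapping matches included, in windows from 250 bases before to 50 bases after each gene start in RefSeq (GRCm38.p6). RefSeq windows were found for 22 of the 32 genes. A match was present for 11 of these 22 genes, or 50%, and for 3.99% of all 27025 genes with a window. A core of the progesterone response element, GNACANNNTGTNC, searched the same way, matched in 0 of the 22 genes and in 0.537% of all genes with a window. The 130 bases directly before the gene start are shown for 5 genes, read 5′ to 3′ along the gene, with the matches in capitals. Isg15 (chr4:156200819-156200948, minus strand) and Ifit3 (chr19:34583399-34583528, plus strand) are shown because they had large differences between groups, Oas1a (chr5:120907526-120907655, minus strand) and Rsad2 (chr12:26456453-26456582, minus strand) because they carry the same element with small differences, and Xaf1 (chr11:72301499-72301628, plus strand) because its pattern over the libraries was unlike that of the others.
Isg15: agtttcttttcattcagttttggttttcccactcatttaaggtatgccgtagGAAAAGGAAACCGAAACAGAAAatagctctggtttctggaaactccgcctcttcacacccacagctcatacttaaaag
Ifit3: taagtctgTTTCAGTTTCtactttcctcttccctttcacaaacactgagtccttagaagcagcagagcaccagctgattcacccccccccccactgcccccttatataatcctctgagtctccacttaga
Oas1a: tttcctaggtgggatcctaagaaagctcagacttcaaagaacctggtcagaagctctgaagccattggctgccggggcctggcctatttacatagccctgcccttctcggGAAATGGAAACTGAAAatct
Rsad2: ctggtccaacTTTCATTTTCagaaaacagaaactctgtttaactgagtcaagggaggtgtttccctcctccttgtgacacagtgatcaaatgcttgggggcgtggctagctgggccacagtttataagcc
Xaf1: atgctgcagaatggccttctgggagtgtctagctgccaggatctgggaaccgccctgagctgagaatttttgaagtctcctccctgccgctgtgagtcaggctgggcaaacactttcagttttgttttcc
In Isg15 the capitals hold 3 overlapping matches, in Oas1a 2, and in Ifit3 and Rsad2 1 each. Xaf1 had no match in its window. A second match of Ifit3 lies further upstream in its window, outside the stretch shown. Of the genes with a window, 3 of the 11 with a match and 7 of the 11 without one had an unadjusted p under 0.05 in PGR-A OE against Myh11Cre. Of all genes tested 15.4% did, and 7.56% were higher at that p. Only this core in these windows was searched, so a gene without a match may hold an ISRE elsewhere. A match describes these letters only and says nothing of binding.

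Total counts lay between 31872534 and 33078483 per library, so depth hardly differed, and the members had between 127 counts (Mx2) and 7168 counts (Bst2) in a library. Levels are given in CPM, edgeR's depth-scaled count with TMM (trimmed mean of M-values) factors, always in the order of replicates 1, 2, 3 and 4. Differences are log2 changes from the quasi-likelihood test of edgeR, which returns no standard error (SE). The SE given was derived from that test, as the absolute log2 change over the square root of its F statistic. Adjusted p-values carry the Benjamini-Hochberg adjustment over the 15561 genes, and a gene is called at an adjusted p under 0.05. Pgr, the progesterone receptor gene, was at 142, 126, 110.5 and 106 CPM in the Myh11Cre libraries, 166, 185, 194 and 255 CPM in the PGR-A OE libraries and 248, 218, 237 and 188 CPM in the PGR-B OE libraries, so both overexpression groups lay above the controls. PGR-A OE replicate 4 stood apart from the other 11 libraries on the first principal component of all genes, at 62.4 against -31.0 to 7.58. In RNA from whole tissue, fewer cells of a type cannot be told from less RNA per cell.

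As a group, the interferon response genes were higher in most PGR-A OE libraries than in the controls, and 1 library in each overexpression group went its own way. Each library was given an interferon score, the mean log2 CPM of the 32 genes. The control libraries scored 4.74, 4.91, 4.94 and 4.92, the PGR-A OE libraries 5.16, 5.35, 5.41 and 4.97, and the PGR-B OE libraries 4.76, 4.79, 4.77 and 5.20. The mean score was 4.88 ± 0.0930 (SD, n = 4) in the controls, 5.22 ± 0.202 in PGR-A OE and 4.88 ± 0.212 in PGR-B OE. All PGR-A OE libraries scored above all controls, replicate 4 only just. Within PGR-B OE, replicates 1, 2 and 3 scored below 3 of the 4 controls, while replicate 4 scored above PGR-A OE replicates 1 and 4.

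**Figure D1:**
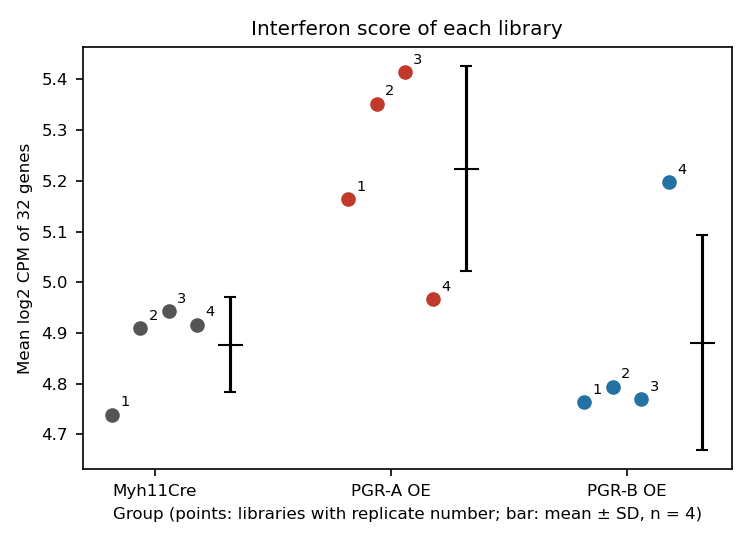
Interferon score of each library, the mean log2 CPM of the 32 genes, by group; points are libraries with their replicate numbers, and bars give the mean ± SD over 4 libraries. PGR-A OE replicates 1 to 3 (5.16 to 5.41) and PGR-B OE replicate 4 (5.20) lie above the rest, and PGR-A OE replicate 4 (4.97) lies close to the highest control (4.94).

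These scores were shared by most of the genes and did not come from a few of them. PGR-A OE replicate 3 held the highest value of all 12 libraries for 16 of the 32 genes and PGR-A OE replicate 2 for 12. Within PGR-A OE, replicate 3 was the highest for 17 of the 32 genes and replicate 2 for 13. The same shares over all genes tested were 27.9% and 15.8%. PGR-A OE replicate 4 was the lowest of its group for 24 of the 32 genes, where 32.9% of all genes tested had their group minimum in that library. PGR-B OE replicate 4 was the highest of its group for 25 of the 32 genes, against 17.8% of all genes tested. Among the controls, replicate 1 was the lowest for 18 genes, against 23.1% of all genes. The spread among replicates was wider for these genes than for genes at large, with a median SD of log2 CPM of 0.178 in Myh11Cre, 0.239 in PGR-A OE and 0.243 in PGR-B OE, where all genes tested had 0.152, 0.173 and 0.185.

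**Figure D2:**
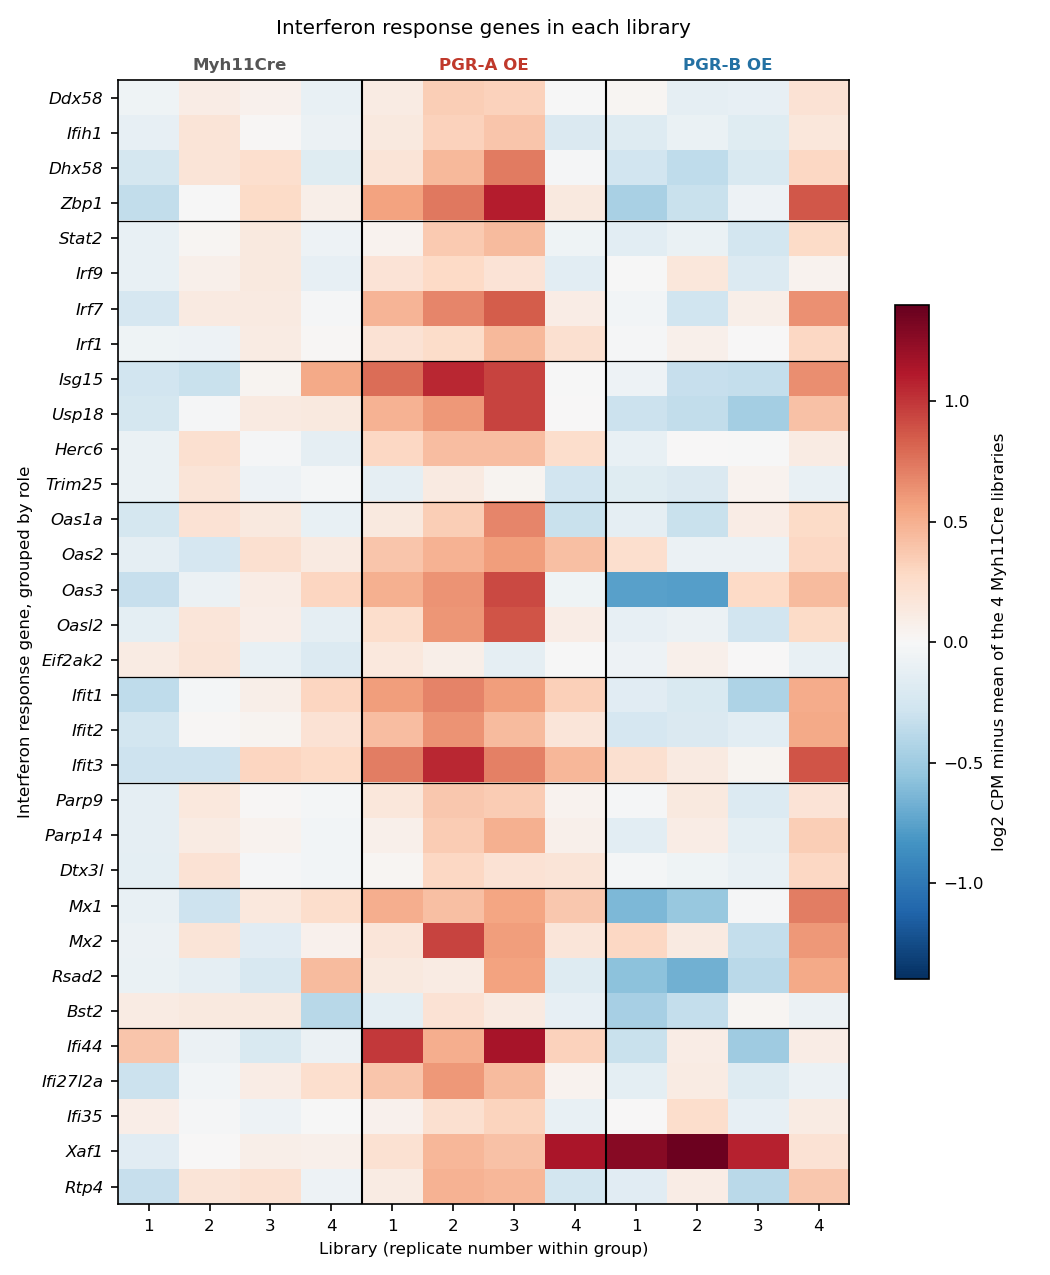
Level of each of the 32 genes in each of the 12 libraries, as log2 CPM minus the mean of the 4 Myh11Cre libraries, with genes grouped by role; red is above and blue below the control mean. Red columns mark PGR-A OE replicates 1 to 3 and PGR-B OE replicate 4, and the row of Xaf1 is deepest red in PGR-A OE replicate 4 and PGR-B OE replicates 1 to 3 (1.08 to 1.38) and pale red in the other 4 overexpression libraries (0.20 to 0.47).

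PGR-A OE was compared with Myh11Cre to ask whether overexpression of isoform A went with a change in these genes. The log2 change was above 0 for 31 of the 32 genes, where 50.1% of all genes tested were above 0, and its median was 0.35 over the 32 genes and 0.00 over all genes tested. None of the 32 was called by edgeR's quasi-likelihood test, which called 0.655% of all genes, and the lowest adjusted p was 0.108 for Oas2. At an unadjusted p under 0.05, 16 of the 32 were higher, against 7.56% of all genes, and 0 were lower, against 7.87%. In 7 genes every PGR-A OE library lay above every control (Irf1, Herc6, Oas2, Ifit1, Ifit3, Mx1 and Xaf1), against 5.01% of all genes tested. DESeq2 called 4 of the 32, Oas2, Ifi44, Herc6 and Ifit3, against 3.62% of all genes, and limma voom called 0, against 0.591%. The count at an unadjusted p under 0.05 was 9 when Myh11Cre replicate 1, PGR-A OE replicate 2 or PGR-A OE replicate 3 was left out. In those fits 5.66%, 6.59% and 8.12% of all genes were higher, in that order.

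The RNA sensors detect viral nucleic acid in the cytoplasm. All 4 had a log2 change above 0, and 1 was higher at an unadjusted p under 0.05, a count of few genes beside the 7.56% of all genes. Zbp1 (chromosome 2, 173206612 to 173218923), a sensor of Z-form nucleic acid linked to inflammatory cell death, was at 11.8, 14.9, 18.0 and 15.9 CPM in the Myh11Cre libraries, 22.2, 25.1, 32.2 and 16.5 CPM in the PGR-A OE libraries and 10.9, 12.1, 14.3 and 27.4 CPM in the PGR-B OE libraries. PGR-A OE replicates 1 to 3 and PGR-B OE replicate 4 lay above every control, and PGR-A OE replicate 4 lay among the controls (log2 change 0.66, SE 0.279, adjusted p = 0.289). Ddx58 (chromosome 4, 40203773 to 40239828), which encodes the RNA helicase RIG-I, was at 47.6, 53.2, 51.6 and 46.1 CPM in the Myh11Cre libraries, 53.4, 63.1, 61.95 and 49.4 CPM in the PGR-A OE libraries and 50.3, 45.5, 45.6 and 57.2 CPM in the PGR-B OE libraries. Its PGR-A OE and control libraries overlapped, with PGR-A OE replicates 1 to 3 above all controls (log2 change 0.20, SE 0.0986, adjusted p = 0.355). For Ifih1, which encodes the related sensor MDA5, the log2 change was 0.18, and for Dhx58, which encodes LGP2, it was 0.35 (SE 0.126 and 0.183).

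The transcription factors carry the interferon signal to the genome. Of these 4 genes, 2 were higher at an unadjusted p under 0.05, a count of few genes beside the 7.56% of all genes. Irf1 (chromosome 11, 53770014 to 53778374), a factor of the response to interferon gamma above all, was at 40.2, 40.0, 45.6 and 42.7 CPM in the Myh11Cre libraries, 48.4, 50.3, 57.7 and 49.0 CPM in the PGR-A OE libraries and 41.5, 44.2, 42.1 and 51.7 CPM in the PGR-B OE libraries. All PGR-A OE libraries lay above all controls, although the difference was small (log2 change 0.28, SE 0.086, adjusted p = 0.158). Irf7 (chromosome 7, 141262706 to 141266481), which amplifies the production of type I interferon, was at 40.0, 51.4, 51.1 and 46.3 CPM in the Myh11Cre libraries, 65.3, 75.6, 84.5 and 50.4 CPM in the PGR-A OE libraries and 45.6, 38.8, 49.6 and 73.1 CPM in the PGR-B OE libraries. Here PGR-A OE replicate 4 was level with the controls, while the other PGR-A OE libraries and PGR-B OE replicate 4 were above them (log2 change 0.55, SE 0.192, adjusted p = 0.214). Stat2 and Irf9, parts of the complex that binds the ISRE, had log2 changes of 0.21 and 0.14 (SE 0.132 and 0.103).

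Isg15 is a ubiquitin-like protein that is joined to other proteins; Herc6 is the main enzyme that attaches it in the mouse, and Usp18 removes it and also damps signalling at the type I receptor. Isg15 (chromosome 4, 156199424 to 156200818) was at 11.4, 11.1, 14.1 and 19.9 CPM in the Myh11Cre libraries, 23.7, 28.7, 26.5 and 13.7 CPM in the PGR-A OE libraries and 13.1, 10.98, 10.9 and 21.6 CPM in the PGR-B OE libraries. PGR-A OE replicates 1 to 3 were the highest of the 12 libraries, PGR-B OE replicate 4 came next, and PGR-A OE replicate 4 lay within the control range (log2 change 0.71, SE 0.277, adjusted p = 0.257). Herc6 (chromosome 6, 57581000 to 57664632) was at 14.4, 18.0, 15.2 and 14.1 CPM in the Myh11Cre libraries, 18.8, 20.8, 20.8 and 18.2 CPM in the PGR-A OE libraries and 14.2, 15.4, 15.3 and 16.7 CPM in the PGR-B OE libraries. Every PGR-A OE library lay above every control, replicate 4 included (log2 change 0.35, SE 0.0928, adjusted p = 0.12). Of its 75-base words 11.3% also occur in other gene models, mostly in an overlapping one, so its count is uncertain to that extent. The log2 change of Usp18 was 0.54 (SE 0.215, unadjusted p under 0.05), with PGR-A OE replicate 4 among the controls. Trim25, a ubiquitin ligase that helps RIG-I to signal, was the only one of the 32 with a log2 change below 0, at -0.05 (SE 0.0966).

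The 2′-5′-oligoadenylate synthetases make a signal from double-stranded RNA that activates an RNA-degrading enzyme, and Eif2ak2 encodes PKR, a kinase that stops translation. Oas2 (chromosome 5, 120730333 to 120749853) was at 33.8, 31.3, 43.2 and 40.3 CPM in the Myh11Cre libraries, 48.4, 51.6, 55.2 and 49.2 CPM in the PGR-A OE libraries and 43.3, 34.7, 34.9 and 45.1 CPM in the PGR-B OE libraries. All PGR-A OE libraries lay above all controls, by a fold of 1.37 in the fit (log2 change 0.46, SE 0.117, adjusted p = 0.108). Oasl2 (chromosome 5, 114896936 to 114912234), a relative of these synthetases, was at 59.1, 72.9, 69.2 and 59.5 CPM in the Myh11Cre libraries, 77.1, 99.9, 119 and 69.5 CPM in the PGR-A OE libraries and 59.8, 61.4, 53.8 and 78.3 CPM in the PGR-B OE libraries. PGR-A OE replicate 3 was the highest of the 12 libraries, and replicate 4 lay inside the control range (log2 change 0.49, SE 0.164, adjusted p = 0.195). Oas3 and Oas1a had log2 changes of 0.52 and 0.25 (SE 0.29 and 0.189), and Eif2ak2 was flat at 0.02 (SE 0.0911). The count of Oas1a is uncertain, since 47.6% of the 75-base words in its annotated transcripts also occur in its neighbour Oas1g.

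The 3 Ifit genes lie near each other on chromosome 19 and encode proteins that bind foreign RNA and block its translation. All 3 were higher at an unadjusted p under 0.05, a count of few genes beside the 7.56% of all genes. Ifit3 (chromosome 19, 34583531 to 34588731) was at 16.3, 16.3, 24.6 and 24.3 CPM in the Myh11Cre libraries, 32.8, 41.7, 32.7 and 27.6 CPM in the PGR-A OE libraries and 23.4, 21.8, 20.6 and 36.8 CPM in the PGR-B OE libraries. Every PGR-A OE library lay above every control, and PGR-B OE replicate 4 was the second highest of the 12 libraries (log2 change 0.72, SE 0.207, adjusted p = 0.141). Its count is uncertain, as 41.1% of its 75-base words also occur in Ifit3b. Ifit1 (chromosome 19, 34640871 to 34650009) was at 14.7, 18.5, 20.0 and 23.2 CPM in the Myh11Cre libraries, 28.3, 30.6, 28.3 and 23.7 CPM in the PGR-A OE libraries and 16.8, 16.2, 13.9 and 27.1 CPM in the PGR-B OE libraries. The PGR-A OE libraries lay above the controls, though replicate 4 only just (log2 change 0.54, SE 0.191, adjusted p = 0.217). Ifit2 had a log2 change of 0.42 (SE 0.169).

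Parp9, Parp14 and Dtx3l encode ADP-ribosyltransferases and the ubiquitin ligase partner of PARP9, and lie near each other on chromosome 16. Parp9 (chromosome 16, 35938470 to 35972605) was at 38.2, 45.9, 41.9 and 40.7 CPM in the Myh11Cre libraries, 46.2, 53.8, 53.2 and 43.1 CPM in the PGR-A OE libraries and 40.9, 45.6, 36.3 and 47.4 CPM in the PGR-B OE libraries. The differences were small and the groups overlapped (log2 change 0.24, SE 0.101, adjusted p = 0.292). Parp14 (chromosome 16, 35832874 to 35871544) was at 55.7, 65.6, 62.6 and 59.2 CPM in the Myh11Cre libraries, 63.8, 77.7, 85.7 and 63.9 CPM in the PGR-A OE libraries and 54.6, 65.4, 55.2 and 77.0 CPM in the PGR-B OE libraries, with PGR-A OE replicates 2 and 3 above every control (log2 change 0.26, SE 0.125, adjusted p = 0.344). Dtx3l had a log2 change of 0.17 (SE 0.102). Parp9 and Dtx3l lie on opposite strands with 458 bases of shared exon, and the use of strand in the counting is not given in the sources used here, so reads in the overlap cannot be assigned to either gene.

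Among the antiviral effectors, Mx1 and Mx2 encode dynamin-like GTPases, Rsad2 encodes viperin, and Bst2 encodes tetherin, which holds budding virus on the cell surface. Mx1 (chromosome 16, 97447035 to 97462907) was at 8.77, 7.73, 10.4 and 11.3 CPM in the Myh11Cre libraries, 13.5, 12.7, 13.9 and 12.3 CPM in the PGR-A OE libraries and 6.11, 6.54, 9.31 and 15.6 CPM in the PGR-B OE libraries. All PGR-A OE libraries lay above all controls within a narrow band, and PGR-B OE held both the lowest and the highest of the 12 values (log2 change 0.46, SE 0.248, adjusted p = 0.399). Mx2 (chromosome 16, 97535308 to 97560900) was at 4.87, 5.85, 4.61 and 5.39 CPM in the Myh11Cre libraries, 5.80, 9.98, 7.74 and 5.82 CPM in the PGR-A OE libraries and 6.31, 5.62, 4.09 and 7.86 CPM in the PGR-B OE libraries. Of the PGR-A OE libraries only replicates 2 and 3 lay above the controls (log2 change 0.50, SE 0.214, adjusted p = 0.295). PGR-B OE replicates 1 and 4 lay above every control too. Rsad2 had a log2 change of 0.16 (SE 0.258) and Bst2 one of 0.01 (SE 0.141). Bst2 had the highest level per length of the 32 genes in the controls, at 246 CPM per kb, and Oas3 the lowest, at 2.06 CPM per kb.

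The remaining genes are marked mainly by their strong induction by interferon. Ifi44 (chromosome 3, 151730922 to 151749960) was at 26.6, 19.1, 17.5 and 19.1 CPM in the Myh11Cre libraries, 40.4, 28.9, 45.4 and 25.4 CPM in the PGR-A OE libraries and 16.4, 21.8, 14.4 and 21.9 CPM in the PGR-B OE libraries. It had the largest log2 change of the 32 in PGR-A OE against Myh11Cre, but control replicate 1 lay above PGR-A OE replicate 4, so the groups overlapped (log2 change 0.77, SE 0.204, adjusted p = 0.119). Ifi27l2a (chromosome 12, 103442167 to 103443680), which encodes a small hydrophobic protein, was at 40.9, 49.4, 54.4 and 59.5 CPM in the Myh11Cre libraries, 66.1, 77.2, 68.7 and 52.3 CPM in the PGR-A OE libraries and 46.0, 54.6, 44.5 and 47.9 CPM in the PGR-B OE libraries. PGR-A OE replicates 1 to 3 lay above all controls (log2 change 0.37, SE 0.131, adjusted p = 0.214). Ifi35 and Rtp4 had log2 changes of 0.13 and 0.22 (SE 0.0979 and 0.193).

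**Figure D3:**
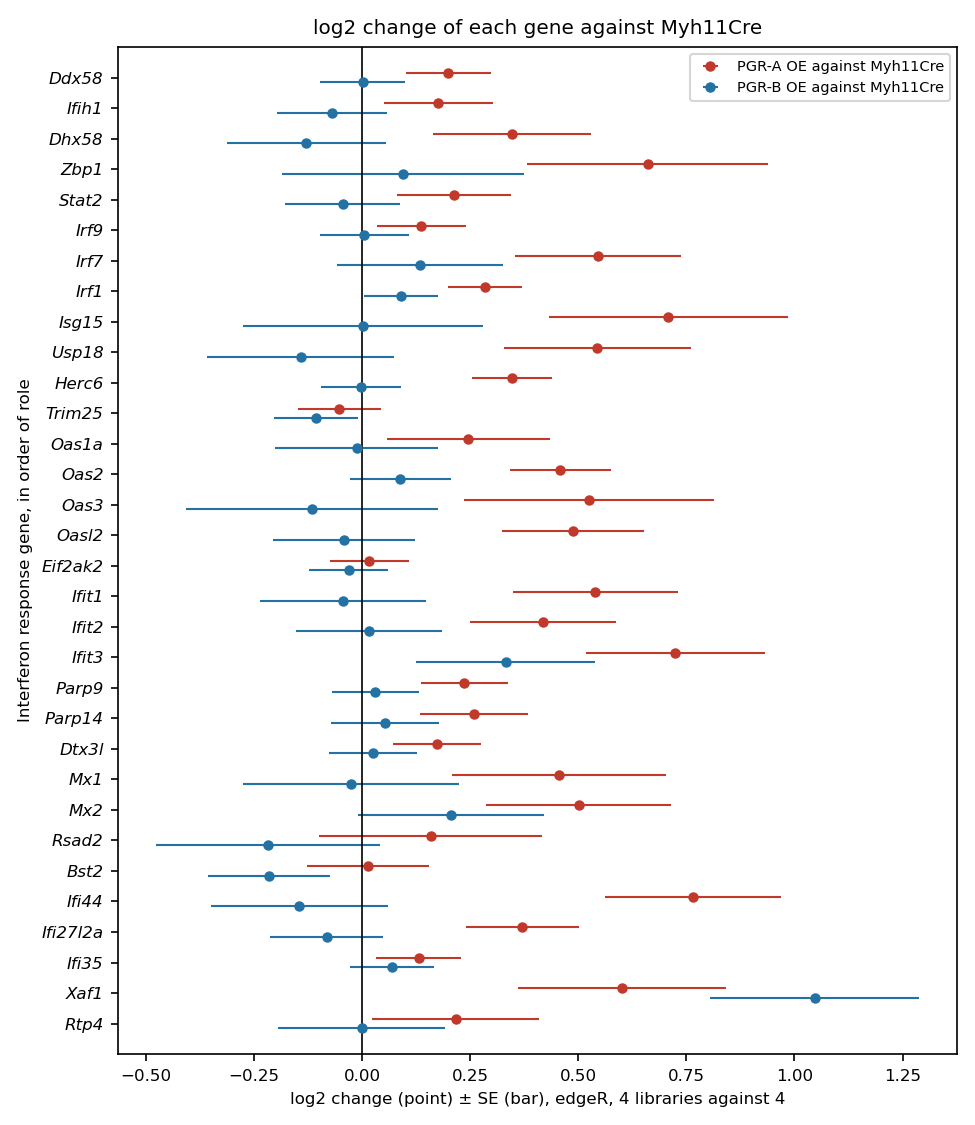
Log2 change of each of the 32 genes in PGR-A OE and PGR-B OE against the same 4 Myh11Cre libraries, with bars of ± SE derived from the edgeR test. In PGR-A OE 31 of 32 points lie right of 0, and in PGR-B OE 15 of 32, with Xaf1 farthest to the right at 1.05.

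PGR-B OE against Myh11Cre asked the same of isoform B, with the same control libraries. The log2 change was above 0 for 15 of the 32 genes, against 48.8% of all genes tested, and its median was -0.00, against -0.01 over all genes. None of the 32 was called by edgeR's quasi-likelihood test, which called 0.308% of all genes. At an unadjusted p under 0.05, 1 gene was higher, against 4.69% of all genes, and 0 were lower, against 4.59%. In 1 gene, Xaf1, every PGR-B OE library lay above every control, against 3.07% of all genes. DESeq2 called 1 gene, Xaf1, against 1.42% of all genes, and limma voom called 0, against 0.238%. With SEs up to 0.291, these 4 libraries against 4 do not show that the other 31 genes were unchanged.

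Xaf1 (chromosome 11, 72301629 to 72313733), whose product binds and restrains the apoptosis inhibitor XIAP, had a pattern of its own. It was at 16.0, 18.0, 18.9 and 18.7 CPM in the Myh11Cre libraries, 20.7, 24.7, 23.7 and 39.4 CPM in the PGR-A OE libraries and 43.3, 46.4, 37.7 and 20.5 CPM in the PGR-B OE libraries. PGR-B OE replicates 1 to 3 and PGR-A OE replicate 4 made up the high values, and PGR-B OE replicate 4 lay with PGR-A OE replicate 1, just above the controls. The mean was 17.9 ± 1.34 CPM (SD, n = 4) in Myh11Cre, 27.1 ± 8.37 CPM in PGR-A OE and 37.0 ± 11.6 CPM in PGR-B OE. By edgeR's quasi-likelihood test the log2 change was 1.05 in PGR-B OE (SE 0.241, adjusted p = 0.132) and 0.60 in PGR-A OE (SE 0.24, adjusted p = 0.267). DESeq2 gave an adjusted p of 0.00309 in PGR-B OE, and without PGR-B OE replicate 4 edgeR called it, with a log2 change of 1.25 and an adjusted p of 0.0222. That library held the lowest Xaf1 value of its group, so leaving it out raises the change by construction and lends the call no support. No fit that left out any other library called Xaf1, and limma voom did not call it. The Pgr values given above ran alike, with PGR-A OE replicate 4 the highest of the 12 libraries and PGR-B OE replicate 4 the lowest of its group. Whether the level of Pgr has a part in that of Xaf1 was not tested. Ptn, which encodes pleiotrophin, was also read in each library. By edgeR's quasi-likelihood test it was called higher in PGR-B OE than in Myh11Cre in these same libraries, replicate 4 included (adjusted p = 0.000497). Ptn is therefore no independent check of the labels. It was at 201, 207, 170 and 270 CPM in the Myh11Cre libraries. The PGR-A OE libraries held 293, 243, 289 and 477 CPM and the PGR-B OE libraries 1037, 1021, 879 and 995 CPM. By Ptn, PGR-B OE replicate 4 lay within its group. PGR-A OE replicate 4 lay above the rest of its group but below every PGR-B OE library.

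**Figure D4:**
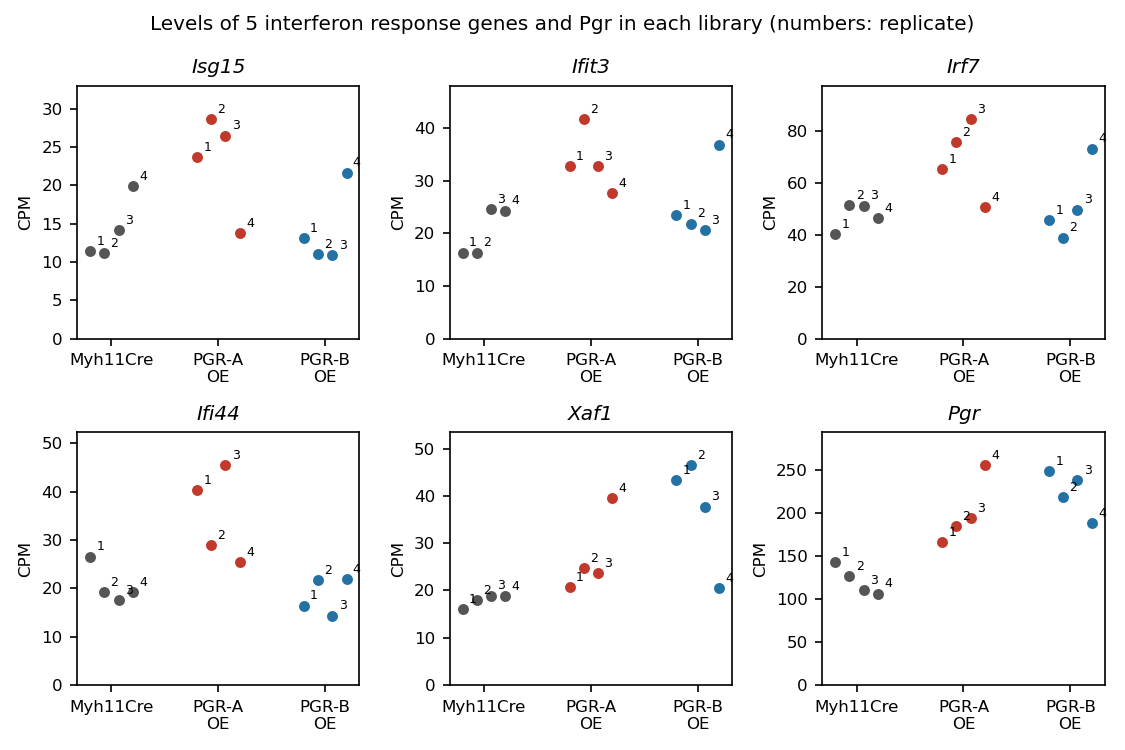
CPM of Isg15, Ifit3, Irf7, Ifi44, Xaf1 and Pgr in each library, by group, with replicate numbers beside the points. In Isg15, Ifit3 and Irf7, PGR-B OE replicate 4 lies with the higher PGR-A OE libraries; in Xaf1 and Pgr, PGR-A OE replicate 4 lies with the higher PGR-B OE libraries.

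PGR-B OE against PGR-A OE sets the isoforms against each other. It uses the PGR-A OE libraries again, so it is not independent of the first comparison. The log2 change was below 0 for 31 of the 32 genes, against 48.8% of all genes tested, with a median of -0.32 against 0.00 over all genes. None of the 32 was called by edgeR's quasi-likelihood test, which called 0.116% of all genes. At an unadjusted p under 0.05, 12 of the 32 were lower in PGR-B OE, against 4.76% of all genes, and 0 were higher, against 3.28%. In 3 genes, Herc6, Oas2 and Ifi44, every PGR-B OE library lay below every PGR-A OE library, against 2.35% of all genes. DESeq2 called 1 gene, Ifi44, against 0.81% of all genes, and limma voom called 0, against 0.135%. The count of 12 lower genes was 20 when PGR-A OE replicate 4 was left out and 23 when PGR-B OE replicate 4 was. In those fits 4.31% and 4.44% of all genes were lower. The same count was 7 when replicate 2 or 3 of PGR-A OE, or replicate 1 or 2 of PGR-B OE, was left out. There 3.9% to 5.36% of all genes were lower.

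Ifi44 had the lowest p of the 32 in this comparison. Its PGR-B OE values, given above, ran from 14.4 to 21.9 CPM, all below the lowest PGR-A OE value of 25.4 CPM (log2 change -0.91, SE 0.205, adjusted p = 0.193). For Herc6 the PGR-B OE libraries ran from 14.2 to 16.7 CPM and the PGR-A OE libraries from 18.2 to 20.8 CPM (log2 change -0.35, SE 0.0928, adjusted p = 0.301). Oas2 lay between 34.7 and 45.1 CPM in PGR-B OE and between 48.4 and 55.2 CPM in PGR-A OE (log2 change -0.37, SE 0.117, adjusted p = 0.448). In these 3 genes PGR-B OE replicate 4 stayed below PGR-A OE, whereas in Zbp1, Ifit3, Mx1 and Mx2 it lay above at least 2 PGR-A OE libraries. Xaf1 was the only one of the 32 with a log2 change above 0, at 0.45 (SE 0.238, adjusted p = 0.694), and its groups overlapped.

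The rest of the interferon pathway was read from 6 further lists of 137 genes in all, of which 134 were in the table and 114 were tested. In PGR-A OE against Myh11Cre, 2 of the 114 were called by edgeR's quasi-likelihood test, both higher, against 0.655% of all genes. At an unadjusted p under 0.05, 25 of the 114 were higher and 3 lower there, against 7.56% and 7.87% of all genes. For PGR-B OE and Myh11Cre none was called, 6 were higher and 3 lower, against 4.69% and 4.59% of all genes, so these counts were near or below the background. Between the isoforms none was called, and in PGR-B OE 3 were higher and 23 lower than in PGR-A OE, against 3.28% and 4.76%. DESeq2 called 7, 1 and 1 of the 114 in these comparisons, against 3.62%, 1.42% and 0.81% of all genes, so that its counts in the last 2 were near the background.

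The ligands were scarce. Of 21 interferon genes in the table, 16 had no count in any of the 12 libraries, among them all the Ifna genes. A count of 0 at this depth does not show that a gene is silent. Ifnb1 had 3 counts over the 12 libraries and Ifng 43. Only Ifne and Ifnk passed the filter, and neither was called in any comparison. Ifne, an interferon known from the female reproductive tract, was at 3.39, 3.88, 4.55 and 5.03 CPM in the Myh11Cre libraries, 3.20, 5.80, 7.001 and 3.85 CPM in the PGR-A OE libraries and 4.48, 7.34, 5.77 and 6.24 CPM in the PGR-B OE libraries, with overlap between the groups (log2 change 0.24 in PGR-A OE against Myh11Cre, SE 0.243). In PGR-B OE against Myh11Cre its log2 change was 0.50. PGR-A OE replicates 2 and 3 and PGR-B OE replicates 2, 3 and 4 lay above every control. Ifnk, known from skin, was highest at 3.10 CPM in Myh11Cre replicate 4 and at or below 0.773 CPM in the other libraries.

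Among 11 receptors, kinases and STAT genes, none was called, and 1 was lower at an unadjusted p under 0.05 in PGR-A OE, against 7.87% of all genes. Jak2, a kinase of the interferon gamma receptor and of cytokine and prolactin receptors, was at 387, 374, 311 and 249 CPM in the Myh11Cre libraries, 221, 207, 225 and 192 CPM in the PGR-A OE libraries and 268, 281, 327 and 245 CPM in the PGR-B OE libraries. All PGR-A OE libraries lay below all controls (log2 change -0.64, SE 0.134, adjusted p = 0.0547), and DESeq2 called it with an adjusted p of 0.000859. Without Myh11Cre replicate 4 edgeR called it too, with an adjusted p of 0.0138. Ifnar1, a chain of the type I receptor, was at 89.7, 90.3, 85.1 and 81.9 CPM in the Myh11Cre libraries, 82.6, 78.9, 86.2 and 78.9 CPM in the PGR-A OE libraries and 90.1, 87.7, 90.1 and 100.2 CPM in the PGR-B OE libraries. Its groups overlapped, and its log2 change was -0.09 (SE 0.0634). Of 15 upstream sensing genes 1 was higher and 2 were lower at an unadjusted p under 0.05, near the 7.56% and 7.87% of all genes, with the adaptors Ticam1 (log2 change -0.30, SE 0.0906, adjusted p = 0.161) and Traf6 (log2 change -0.21, SE 0.0709, adjusted p = 0.206) as the lower ones. Of 14 negative regulators tested 2 were higher, a count of few genes beside the 7.56% of all genes, namely Nlrx1 (log2 change 0.33, SE 0.106, adjusted p = 0.183) and Tnfaip3, which encodes the ubiquitin-editing enzyme A20 (log2 change 0.63, SE 0.205, adjusted p = 0.186).

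Most of the 41 further type I interferon-induced genes had higher values in PGR-A OE. Set against Myh11Cre, 38 of the 41 had a log2 change above 0, where 50.1% of all genes did, and the median was 0.19, where that of all genes was 0.00. Of the 41, 11 were higher and 0 lower at an unadjusted p under 0.05, against 7.56% and 7.87% of all genes. Both called genes of the pathway lists were here. Uba7, the enzyme that activates ISG15 for conjugation, was at 38.4, 39.4, 40.7 and 42.7 CPM in the Myh11Cre libraries, 55.1, 55.8, 64.0 and 47.2 CPM in the PGR-A OE libraries and 48.0, 46.0, 46.9 and 48.9 CPM in the PGR-B OE libraries. Every PGR-A OE library lay above every control, and Uba7 rose in PGR-A OE (log2 change 0.46, SE 0.0823, adjusted p = 0.0256). Every PGR-B OE library lay above every control as well, although Uba7 was not called in that comparison. Parp10, another ADP-ribosyltransferase, was at 27.9, 28.4, 28.7 and 30.5 CPM in the Myh11Cre libraries, 37.2, 41.0, 38.2 and 34.1 CPM in the PGR-A OE libraries and 34.7, 30.3, 31.9 and 33.2 CPM in the PGR-B OE libraries and rose in PGR-A OE as well (log2 change 0.38, SE 0.0708, adjusted p = 0.0329). Both calls were lost in the fit of the 8 libraries compared, where the adjusted p was 0.0705 for Uba7 and 0.0562 for Parp10. Both were lost too without Myh11Cre replicate 1, 2 or 3 or PGR-A OE replicate 1 or 2, with adjusted p-values from 0.0594 to 0.132. That of Parp10 was also lost without PGR-A OE replicate 3, with an adjusted p of 0.0709.

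The 32 genes of the interferon gamma response and antigen presentation showed a median log2 change of 0.35 in PGR-A OE against Myh11Cre, with 29 of 32 above 0 (50.1% of all genes). Of these 32, 11 were higher and 0 lower at an unadjusted p under 0.05, against the same 7.56% and 7.87% of all genes, and none was called. Tap2, a chain of the peptide transporter, was at 44.0, 45.7, 51.8 and 48.7 CPM in the Myh11Cre libraries, 51.6, 58.0, 69.7 and 61.5 CPM in the PGR-A OE libraries and 51.1, 45.5, 48.9 and 54.8 CPM in the PGR-B OE libraries, and the controls touched the PGR-A OE range (log2 change 0.34, SE 0.0942, adjusted p = 0.132). Psmb8, an immunoproteasome subunit, was at 24.6, 23.8, 29.9 and 33.2 CPM in the Myh11Cre libraries, 34.2, 38.8, 42.4 and 34.0 CPM in the PGR-A OE libraries and 28.7, 27.5, 23.5 and 36.1 CPM in the PGR-B OE libraries, with all PGR-A OE libraries above the controls (log2 change 0.42, SE 0.14, adjusted p = 0.191). In PGR-B OE replicate 4 the mean log2 CPM of this list was 0.38 above the control mean and that of the further type I genes 0.31 above it. PGR-A OE replicate 4 stood at 0.11 and 0.07 on the same scale, so the libraries that stood apart on the 32 genes stood apart on these lists too.

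**Figure D5:**
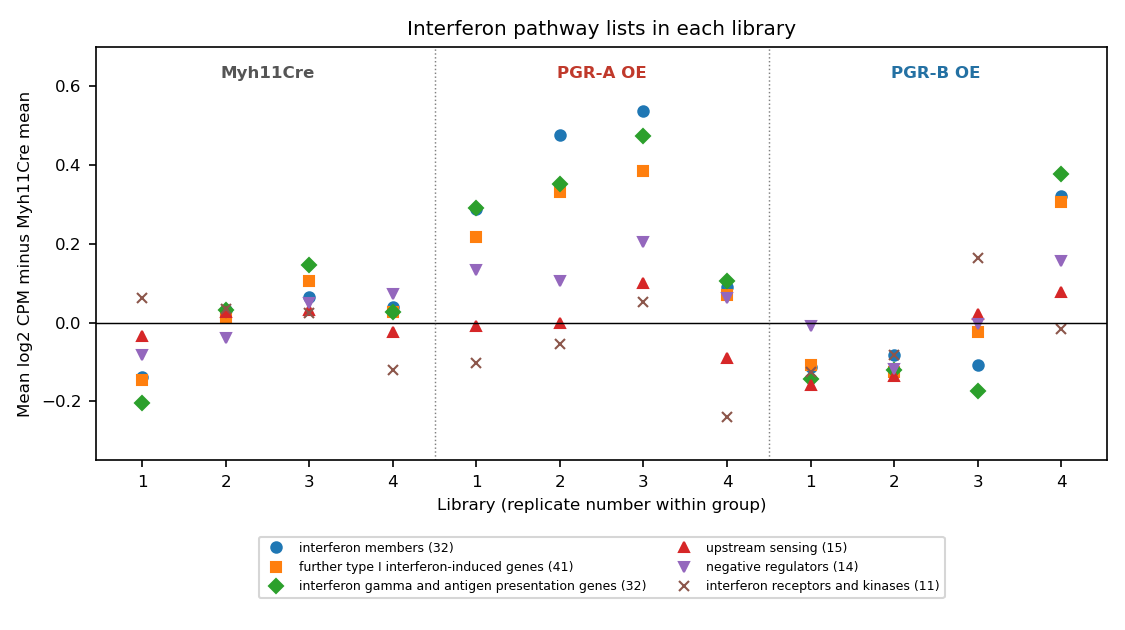
Mean log2 CPM of the 32 genes and of 5 pathway lists in each library, minus the mean of the 4 Myh11Cre libraries; the number of genes is given beside each list. The 3 lists of interferon-induced genes move together, from 0.22 to 0.54 in PGR-A OE replicates 1 to 3 and from 0.31 to 0.38 in PGR-B OE replicate 4.

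Markers of the cell types that uterine tissue holds were read beside these results. The summed level of 10 smooth muscle markers lay between 13324 and 17479 CPM in Myh11Cre, between 17978 and 24588 CPM in PGR-A OE and between 12956 and 17218 CPM in PGR-B OE, so it was above all controls in PGR-A OE, and all 10 markers had a log2 change above 0 there. Its highest value was in PGR-A OE replicate 4, the PGR-A OE library with the lowest interferon score. The sum of 9 fibroblast markers lay between 24873 and 25805 CPM in Myh11Cre, between 29136 and 36341 CPM in PGR-A OE and between 29160 and 36261 CPM in PGR-B OE. It was thus above all controls in both overexpression groups, and in each 7 of the 9 had a log2 change above 0 against Myh11Cre. By edgeR's quasi-likelihood test 2 of the 9 were called higher in PGR-A OE, against 0.655% of all genes called. In PGR-B OE 0 were called, against 0.308%. The sum of 9 endothelial markers lay between 639 and 738 CPM in Myh11Cre, between 694 and 798 CPM in PGR-A OE and between 608 and 749 CPM in PGR-B OE, and all 9 had a log2 change above 0 in PGR-A OE against Myh11Cre. Decidual and epithelial cells of the lining and cells of the conceptus were read in the same way. The sum of 8 decidual markers was 312, 581, 598 and 5249 CPM in the Myh11Cre libraries, 1438, 1409, 338 and 153 CPM in the PGR-A OE libraries and 1047, 866, 927 and 1132 CPM in the PGR-B OE libraries. It was thus highest in Myh11Cre replicate 4, the library with the lowest Bst2 level of its group, the highest Ifnk level and the lowest value on the first principal component, and lowest in PGR-A OE replicate 4, which stood at the other end of that component. The decidual marker Prl3c1 was at 0 in Myh11Cre replicate 1 and PGR-A OE replicates 3 and 4. The sum of 10 epithelial and gland markers lay between 1386 and 1962 CPM in Myh11Cre, between 1251 and 1604 CPM in PGR-A OE and between 1344 and 1946 CPM in PGR-B OE, and those ranges overlapped. The sum of 10 trophoblast and yolk sac markers was at most 15.7 CPM, in Myh11Cre replicate 4, and the trophoblast marker Gcm1 was at 0 in all 12 libraries. The part of these lists in the interferon differences was not tested.

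Leukocytes are rich sources of interferon-induced transcripts, so their markers were read as well. The sum of 10 macrophage markers was 1090 to 1275 CPM in Myh11Cre, 1089 to 1380 CPM in PGR-A OE and 927 to 1376 CPM in PGR-B OE, and 5 of 10 had a log2 change above 0 in PGR-A OE against Myh11Cre. The sum of 9 dendritic cell markers, with Siglech for the plasmacytoid type, overlapped between all groups, at 154 to 187 CPM, 154 to 198 CPM and 159.7 to 210 CPM in the same order. The sum of 7 T cell markers was 9.06 to 12.6 CPM in Myh11Cre, 9.87 to 14.3 CPM in PGR-A OE and 8.81 to 18.5 CPM in PGR-B OE, the last in replicate 4. Of 9 natural killer cell markers the sum was 11.3 to 23.4 CPM in Myh11Cre, 10.7 to 20.2 CPM in PGR-A OE and 11.6 to 55.0 CPM in PGR-B OE, where replicate 1 held the highest value. B cell markers summed to between 3.32 and 6.68 CPM over the 12 libraries, and Pax5 was at 0 in 1 of them. The sum of 7 neutrophil markers was 8.64 to 16.4 CPM in Myh11Cre, 16.0 to 21.0 CPM in PGR-A OE and 10.8 to 22.4 CPM in PGR-B OE. No other leukocyte marker of these lists was at 0 in any library. PGR-B OE replicate 4 thus held the highest T cell sum of the 12 libraries and the highest interferon score of its group. PGR-A OE replicates 1 to 3, with scores of 5.16, 5.35 and 5.41, had T cell sums of 9.87, 14.3 and 12.2 CPM. The part of the leukocyte markers in the interferon score was not tested.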

How the data were processed

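RNA from uterine tissue was sequenced in 12 libraries, 4 per group, paired-end at 75 bases per the labels' protocols. The deposited table holds the authors' raw read counts of each gene, whole numbers that were not normalized, with a gene length for each gene as another column of the table. The submitters' processing notes name the builds mm10 and GRCm38 and the tools STAR 2.7.0f, Bowtie2 2.2.5, Subread 1.6.4, featureCounts and DESeq2. What each did, and how strand and reads that match several genes were treated, is not given in the sources used here, nor is the annotation.

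Testing used edgeR 4.0.16 under R 4.3.3. After filterByExpr and TMM scaling, 1 robust quasi-likelihood model with group means was fitted to the 12 libraries together. Each of the 3 comparisons was a contrast of that model, with Benjamini-Hochberg adjustment over the genes tested. Scores are means of log2 CPM with a prior count of 2. Alternatives were DESeq2 1.42.0, its size factors, no filter, limma 3.58.1 voom with and without sample quality weights (the weights were added after seeing the data), a replicate block, the 8 libraries compared, and leaving out libraries. Libraries of a group were checked for duplicates, and none were found. Positions, exon overlaps and shared 75-base words come from the GENCODE annotation of GRCm38, and promoter windows from RefSeq (GRCm38.p6). Levels per library are given for the 2 genes of each role with the lowest p in PGR-A OE against Myh11Cre and for the gene with the lowest p in each other comparison. The members, lists and this rule were chosen with earlier results of these data known.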

Additional observations from a re-analysis of the deposited data

Results flagged for a closer look

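Values that lie far from the other 3 libraries of their group were looked for in the 32 genes and the interferon score, over 99 groups of 4 libraries. Chance flags about 1 in 20 such groups, and 5 were found here. In PGR-B OE replicate 4, Usp18 was at 18.4 CPM, with the next library at 11.2 CPM, and Ifit2 was at 40.1 CPM, with the next at 25.0 CPM. The interferon score of PGR-B OE replicate 4 was 5.20, with the next at 4.79. Bst2 was at 142.3 CPM in Myh11Cre replicate 4, with the next library at 202 CPM. The interferon score of Myh11Cre replicate 1 was 4.74, with the next at 4.91. Of the 5, 3 belong to PGR-B OE replicate 4. The score is made from the same genes, so these are not separate observations.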

How the results depend on the processing

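Medians and per-library scores moved by less than the replicate SD under every alternative run, and no called value changed sign. Counts of calls moved more. In PGR-A OE against Myh11Cre, the number of the 32 genes called was 0 by edgeR, 4 by DESeq2 and 9 by limma voom with sample quality weights. Of pathway genes 2 were called by edgeR, 7 by DESeq2 and 17 with quality weights. The shares of all genes called were 0.655%, 3.62% and 6.61% in turn. In the fit of 8 libraries 0 pathway genes were called, against 0.41% of all genes, and with the replicate block 1, against 0.443%. Leaving out 1 library at a time gave 9 to 23 of the 32 at an unadjusted p under 0.05 (23 without PGR-A OE replicate 4). Of all genes 5.6% to 8.12% were higher at that p. Those fits called 0 to 3 pathway genes, against 0.204% to 0.631% of all genes, and gave medians of 0.27 to 0.39. In PGR-B OE against Myh11Cre DESeq2 called 1 of the 32 and 1 pathway gene, against 1.42% of all genes. Quality weights put 2 of the 32 higher at an unadjusted p under 0.05, against 7.92% of all genes. Leaving out PGR-A OE replicate 4 and Myh11Cre replicate 4 put 1 lower, against 5.98%. Leaving out 1 library gave 0 to 1 called, against 0.14% to 0.306% of all genes. It gave 0 to 2 lower, against 2.94% to 6.07%, and medians of -0.11 to 0.06. Between the isoforms DESeq2 called 1 of the 32 and 1 pathway gene, against 0.81% of all genes. Quality weights called 1 of the 32 there, against 0.514%. At an unadjusted p under 0.05, leaving out PGR-A OE replicate 4 and Myh11Cre replicate 4 gave 19 lower and 1 higher. Of all genes 4.74% were lower and 4.06% higher. Leaving out 1 library gave 7 to 23 lower, against 3.9% to 5.36% of all genes. It gave 0 to 1 higher, against 2.18% to 4.49%, and medians of -0.41 to -0.25.

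Over all genes, the calls in the 3 comparisons in turn were 102, 48 and 18 by edgeR, 564, 221 and 126 by DESeq2, 1029, 153 and 80 with quality weights, 63, 44 and 10 in fits of 8 libraries, and 96, 91 and 38 without PGR-A OE replicate 4 and Myh11Cre replicate 4. Same-numbered libraries did not deviate together (correlations -0.257 to 0.190, 1 of 12 pairs over 0.1, and 2 of 12 libraries closest to their own number), so the numbers were not taken as pairs. With the replicate block 69, 32 and 11 genes were called, the adjusted p was 0.0732 for Uba7, 0.108 for Parp10 and 0.0496 for Jak2, and the median of the 32 in PGR-A OE was 0.35. With 4 libraries per group and SEs from 0.0859 to 0.291, small changes of single genes were not detectable.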
